A study of Zea mays with 6 samples.

Results

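The data describe 2 maize genes that encode core histones, the H3 gene GRMZM2G401581 and the H4 gene GRMZM2G084195. They were taken by their identifiers from the 110149 gene features of the transcript table, together with every H3K9ac and H3K4me3 region that the authors assigned to either gene. That gave 1 of 43734 H3K9ac regions and 1 of 32908 H3K4me3 regions, both next to the H4 gene, and none next to the H3 gene. The pair was chosen by its transcript difference between the zones in these same libraries, so its own values are given as a description, without a test.

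All plants were of the inbred line B73 and untreated, grown under a day of 16 h (25 °C) and a night of 8 h (20 °C) until 13 to 14 days after sowing. For the maturing zone, 4 cm were taken midway along the lit blade of leaf 3. For the base, 1 to 2 cm were taken from the bottom end of those leaves, which no light reached. Poly(A) RNA was read in 2 libraries per zone, A and B, each from a pool of 6 plants, and chromatin came from pools of 10 plants. Both pieces hold all cell types of the leaf, so fewer cells of a type and less RNA per cell cannot be told apart.

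H3 and H4 pair up as the tetramer at the heart of the nucleosome, around which DNA winds, and H2A and H2B complete it. A cell that copies its DNA needs a full new set of histones, and most core histone genes are therefore transcribed in S phase. In plants these transcripts carry poly(A) tails, unlike most of those in animals, so poly(A) libraries capture them. The same H3 protein carries both marks measured here. Acetylation of its lysine 9 (H3K9ac) and trimethylation of its lysine 4 (H3K4me3) are found around the start of active genes. A maize leaf grows from its base, where cells divide, and cells towards the tip are older.

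The transcript libraries held 50657759 and 18325106 exon reads in maturing zone A and B, and 44243772 and 24205348 in base A and B. Levels are given as CPM, the reads of a gene relative to the depth of its library, after TMM scaling, which sets the libraries to a common level over most genes. The zone labels were checked on marker genes. Summed levels of 3 mesophyll C4 genes were 62888 and 95361 CPM in maturing zone A and B, against 78.0 and 79.4 CPM in base A and B. Those of the replication helicase genes MCM6 and MCM7 were 0.173 and 0.296 CPM in maturing zone A and B, against 124 and 60.2 CPM in base A and B. Summed levels of 3 bundle sheath genes were 36101 and 57220 CPM in maturing zone A and B, against 158 and 464 CPM in base A and B. The levels of these markers moved with the zone, and their part in the results was not tested.

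The H3 gene was nearly silent in the maturing zone. It had 2 and 3 reads in maturing zone A and B, against 3047 and 1290 reads in base A and B. On the TMM scale this was 0.0494 and 0.296 CPM in maturing zone A and B, against 41.4 and 39.3 CPM in base A and B. The zones did not overlap, and the base libraries lay close together, with a mean of 40.4 ± 1.47 CPM (SD, n = 2). The mean in the maturing zone was 0.173 ± 0.174 CPM (SD, n = 2), so there the spread was as large as the level. The log2 difference, maturing zone minus base, was -8.29 ± 0.99 (SE, n = 2 libraries per zone, edgeR). In reads summed over the libraries the base stood 413-fold above the maturing zone, with a 95% exact binomial interval of 177 to 1272 that covers counting error only. The authors' deposited table gives a signed fold of -330.81 for H3, where negative means lower in the maturing zone.

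The H4 gene was lower in the maturing zone as well, but stayed detectable there. It had 60 and 49 reads in maturing zone A and B, against 12730 and 11513 reads in base A and B. These were 1.48 and 4.83 CPM in maturing zone A and B, against 173 and 351 CPM in base A and B. Here too the zones did not overlap. For H3 as for H4 nothing is read from this, since the transcript difference chose them. The share of all tested genes without overlap was not counted. H4 was higher in library B of each zone, and its base libraries lay farther apart than those of H3. Its means were 3.16 ± 2.37 CPM in the maturing zone and 262 ± 126 CPM in the base (SD, n = 2 each), and its log2 difference was -6.40 ± 0.95 (SE, n = 2 libraries per zone, edgeR). The base stood 106-fold above the maturing zone in summed reads (95% exact binomial interval 87.7 to 129, counting error only), and the authors' deposited table gives a signed fold of -92.62.

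In the fit across all 26787 genes tested, 15.8% were called lower, and nothing is read from the place of H3 and H4 among them, since the transcript difference chose them. Lower differences than that of H3 were found in 218 tested genes, or 0.814%, and lower ones than that of H4 in 1043, or 3.89%. The median log2 difference of all tested genes was -0.13. Without maturing zone library A the log2 difference was -7.05 for H3 and -5.71 for H4, and without maturing zone library B it was -9.65 for H3 and -7.49 for H4. Without base library A it was -6.82 for H4, and without base library B -5.84. The difference between both genes' changes was not tested.

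**Figure D1:**
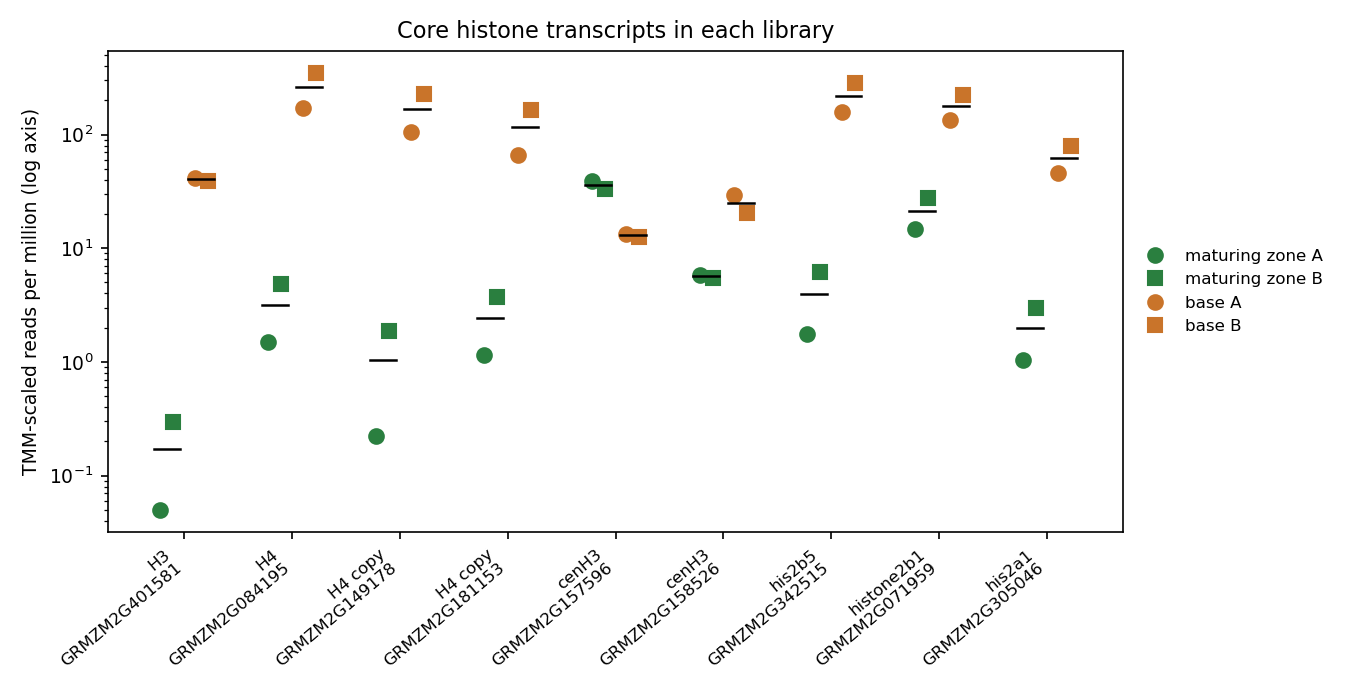
TMM-scaled CPM on a log axis for H3, H4 and 7 other core histone features in each of 4 libraries, with maturing zone libraries (green) left of base libraries (orange), circles for library A, squares for library B and black bars for the mean of each zone. H3 stood at 0.0494 and 0.296 CPM in the maturing zone, against 41.4 and 39.3 CPM in the base. The feature GRMZM2G157596, listed under the name cenH3, was higher in both maturing zone libraries on this scale.

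Per exon length, the H4 gene GRMZM2G084195 outweighed the H3 gene GRMZM2G401581 in every library. Other copies of H3 and H4 were not part of this comparison. In RPKM, reads relative to exon length and library depth, as the authors deposited them, H3 had 0.03 and 0.12 in maturing zone A and B, against 49.69 and 39.41 in base A and B. H4 had 0.73 and 1.7 RPKM in maturing zone A and B, against 178.51 and 302.43 RPKM in base A and B. The H3 level per length was 3.88% and 7.12% of the H4 level in maturing zone A and B, against 27.8% and 13.0% in base A and B. The maturing zone shares rest on 2 and 3 H3 reads. In base A 2120 of all features had a higher RPKM than H3 and 363 a higher one than H4, and in base B 2841 and 254 did. In maturing zone A 31597 features were above H3 and 19369 above H4, and in maturing zone B 25580 and 13979 were.

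Maize holds several near-identical genes for each core histone, and reads may be shared among them. The RefSeq gene table of a later B73 assembly places GRMZM2G401581 in 1 gene that also bears the names H3C2, H3C3 and H3C4. It lists GRMZM2G084195 under 2 genes, of which one also carries the names of the H4 features GRMZM2G149178 and GRMZM2G181153. How reads that match several copies were counted was not stated. Among the reads of these 3 H4 features, GRMZM2G084195 held 51.7% and 46.2% in maturing zone A and B, against 50.3% and 47.0% in base A and B. Its share thus stayed near one value while its level differed between zones. The order of the other H4 features turned between zones. GRMZM2G149178 had 9 and 19 reads in maturing zone A and B, against 7754 and 7540 in base A and B. GRMZM2G181153 had 47 and 38 reads in maturing zone A and B, against 4840 and 5424 in base A and B. This turn was not tested, and the maturing zone counts are small.

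The other 2 H4 features fell with it. They may share its reads, so their p-values are not separate from the choice of H4. GRMZM2G149178 had 0.222 and 1.87 CPM in maturing zone A and B, against 105 and 230 CPM in base A and B, a log2 difference of -7.45 ± 1.30 (SE, edgeR adjusted p = 0.0176). GRMZM2G181153 had 1.16 and 3.75 CPM in maturing zone A and B, against 65.8 and 165 CPM in base A and B, with -5.60 ± 0.94 (SE, edgeR adjusted p = 0.0163). In both zones each H4 feature was higher in library B than in library A. The CPM in base A was 0.493 of that in base B for GRMZM2G084195, 0.458 for GRMZM2G149178 and 0.398 for GRMZM2G181153, against 1.05 for H3.

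Of 8 other core histone features in the reference names, 7 passed the count filter, and of these 6 fell and 0 rose, beside 15.8% and 13.5% of all tested genes. Their median log2 difference was -5.01, beside -0.13 over all tested genes. The only H3 features among the 8 were those listed as cenH3, so no further copy of the H3 gene was compared. The count of 6 and this median include both other H4 features. The reference lists these with GRMZM2G084195 and they may share its reads, so their fall is not separate from the choice of H4. The H2B gene his2b5 (GRMZM2G342515) had 1.75 and 6.21 CPM in maturing zone A and B, against 158 and 283 CPM in base A and B, a log2 difference of -5.82 ± 0.92. The H2A gene his2a1 (GRMZM2G305046) had 1.04 and 2.96 CPM in maturing zone A and B, against 45.5 and 79.4 CPM in base A and B, and fell by 5.01 ± 0.79 on the log2 scale. A further H2B gene, histone2b1 (GRMZM2G071959), kept more of its level in the maturing zone, with 14.7 and 27.7 CPM in A and B, against 134 and 221 CPM in base A and B. It fell by 3.07 ± 0.63 on the log2 scale (SE, edgeR adjusted p = 0.0235). With library A of the maturing zone left out it no longer passed the threshold (edgeR adjusted p = 0.111). The H2B feature his2b2 (GRMZM2G119071) had 0 reads in both maturing zone libraries, against 20 and 5 reads in base A and B. It did not pass the filter. With 3 reads assumed in the maturing zone in place of 0, his2b2 came out 3.97-fold lower there. This is not a firm bound, as counting error of the base reads and the spread between libraries are left out.

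Centromeric H3 is the variant that marks where the kinetochore forms. Its name, cenH3, was given here to 2 features that the reference lists together, each under the same 2 genes. Not both of these genes carry that name, so it is not settled that each feature encodes centromeric H3. GRMZM2G158526 fell, with 5.86 and 5.52 CPM in maturing zone A and B, against 29.5 and 20.5 CPM in base A and B. Its log2 difference was -2.13 ± 0.52 (SE, edgeR adjusted p = 0.0344), and the call was lost when any library was left out, with adjusted p of 0.058 to 0.194. GRMZM2G157596 had 38.9 and 33.2 CPM in maturing zone A and B, against 13.4 and 12.6 CPM in base A and B. Its log2 difference of 1.47 ± 0.46 was not called (edgeR adjusted p = 0.0634), while with DESeq2 size factors it was (edgeR adjusted p = 0.047). Under library totals it was 0.33 and not called (edgeR adjusted p = 0.74), so the size of the rise depended on the scaling. The authors' RPKM of GRMZM2G157596 overlapped, with 17.05 and 10.37 in maturing zone A and B, against 12.21 and 9.63 in base A and B. Under library totals the median of all genes shifted by -1.14, and the log2 differences of H3 and H4 were then -9.43 and -7.64.

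**Figure D2:**
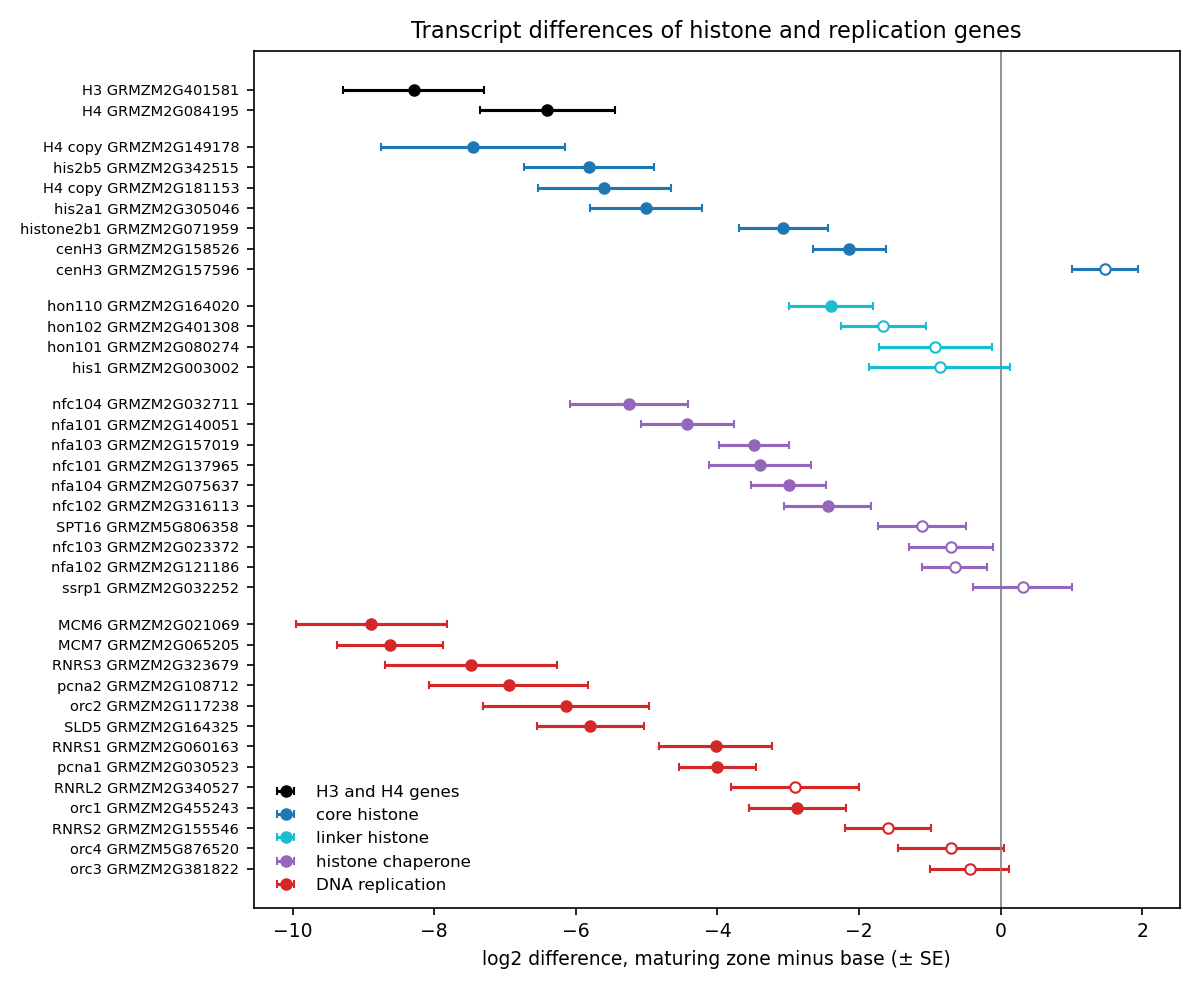
Log2 differences of transcripts, maturing zone minus base, with standard errors (edgeR, n = 2 libraries per zone), for H3 and H4 and for the tested genes of each list. Filled points of the lists had an adjusted p under 0.05, open points did not, and the points of H3 and H4 are filled without a test; 6 of 7 other core histone features lie left of -2, and 1 lies right of 0.

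Histones travel to DNA bound to chaperones, and the genes of these proteins formed a mixed list. Of 10 chaperone genes tested 6 fell and 0 rose, beside 15.8% and 13.5% of all tested genes, and the list's median log2 difference was -2.72. The names nfa and nfc denote, in the naming of plant chromatin genes, relatives of nucleosome assembly protein 1 and of MSI1. Only these relatives and the subunits of a further chaperone, FACT, made up the list. Other chaperone families were not found by name in the reference and are not covered. Among the 5 with most reads, nfa101 (GRMZM2G140051) had 9.29 and 6.21 CPM in maturing zone A and B, against 221 and 113 CPM in base A and B, with a log2 difference of -4.42 ± 0.65. The gene nfa103 (GRMZM2G157019) fell by 3.48 ± 0.50 on the log2 scale (SE, edgeR adjusted p = 0.0139 beside 0.0143 for nfa101). The subunits of FACT, a chaperone that works at transcribed and replicating DNA, were not called. SPT16 (GRMZM5G806358) had a log2 difference of -1.11 ± 0.63 and ssrp1 (GRMZM2G032252) one of 0.31 ± 0.70, with edgeR adjusted p of 0.233 and 0.763. The sign of ssrp1 turned under library totals, without maturing zone library A and without base library B. The gene nfa102 (GRMZM2G121186) had -0.65 ± 0.46 and an edgeR adjusted p of 0.334.

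Genes of DNA replication were counted for comparison with the S-phase histones. Of 14 listed 13 were tested, 9 fell and 0 rose, beside 15.8% and 13.5% of all tested genes, with a median log2 difference of -4.02. The count of 9 includes MCM6 and MCM7, which also served to check the zone labels. The replication clamp gene pcna2 (GRMZM2G108712) had 0.247 and 1.78 CPM in maturing zone A and B, against 117 and 111 CPM in base A and B. Its log2 difference was -6.95 ± 1.13, between those of H3 and H4. The clamp gene pcna1 (GRMZM2G030523) fell by 4.00 ± 0.54 on the log2 scale. RNRS3 (GRMZM2G323679), a ribonucleotide reductase small subunit that makes the building blocks of DNA, had -7.48 ± 1.21 (SE, edgeR adjusted p = 0.0158 beside 0.0158 for pcna2 and 0.0136 for pcna1). For MCM6 and MCM7 the differences were -8.89 ± 1.07 and -8.62 ± 0.75. The ratio of base A to base B ran from 1.06 for pcna2 and 1.09 for pcna1 to 1.70 for MCM7 and 2.56 for MCM6, while RNRS3 had 0.605. What sets these differences between libraries of the base was not tested.

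**Figure D3:**
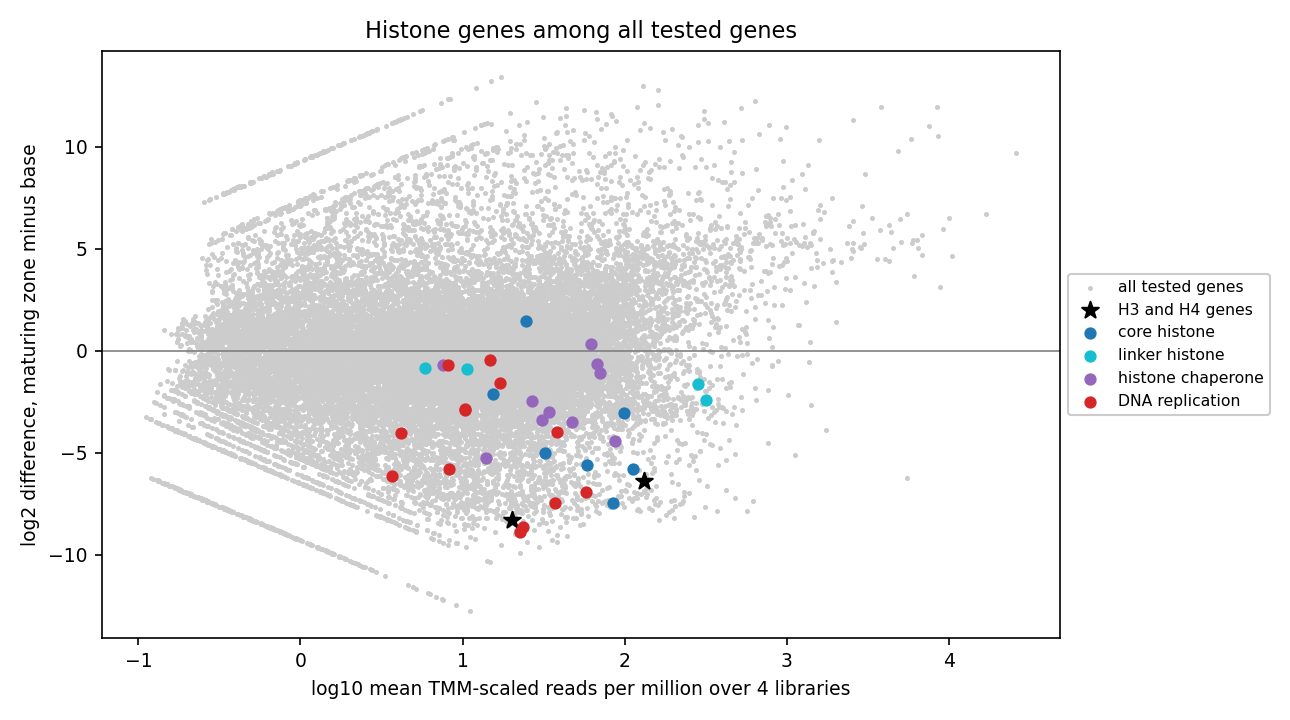
Log2 difference of transcripts, maturing zone minus base, against the log10 of the mean level over 4 libraries, for all 26787 tested genes (grey) and the listed genes (colours); stars mark H3 and H4. H3, at -8.29, lies near MCM6 and MCM7, and H4, at -6.40, lies at a higher mean level than the other core histone features plotted.

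H3K9ac and H3K4me3 were compared between zones at the regions the authors assigned to each gene, by their own averages, which carry no SD or number of replicates. On the B73 RefGen_v3 build the H3K9ac region of the H4 gene spans chromosome 4 from 156508934 to 156509629. Its average was 31.24 normalized reads in the maturing zone, against 77.13 in the base. The authors' deposited table gives a signed fold of -2.47 and an FDR under 0.05, as it does for 33.8% of all H3K9ac regions in that direction. Among all H3K9ac regions 15.5% had a lower fold than this one. Its base average was modest, with 78.6% of regions above it and a median region at 218.14.

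The H3K4me3 region of the H4 gene spans chromosome 4 from 156509113 to 156509884. It averaged 19.97 normalized reads in the maturing zone, against 189.07 in the base, close to the median region of 192.21 in the base. In the authors' deposited table the signed fold is -9.47 with an FDR under 0.05, as for 14.3% of all H3K4me3 regions in that direction. Only 510 of 32908 regions, or 1.55%, had a lower fold. In the maturing zone 95.9% of H3K4me3 regions and 96.0% of H3K9ac regions stood above those of H4.

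Both regions overlap by 516 bp, which is 74.2% of the H3K9ac and 66.9% of the H3K4me3 region, and the H3K4me3 region starts 179 bp and ends 255 bp farther along the chromosome. The loss of H3K4me3 was 3.83 times that of H3K9ac, a log2 gap of -1.94. Across 26116 genes whose strongest regions of each mark overlap, the median gap was 0.16 and 191 genes, or 0.731%, had a lower one than H4. Among the 3266 of them with lower transcripts the median was 0.36 and 35 genes, or 1.07%, lay below H4. This gap was chosen for description after the values were seen, and marks come from separate tables scaled by the authors in a way that no label states. Gene starts on this build were not used here, so the distance of the regions from the start of H4 is not given.

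**Figure D4:**
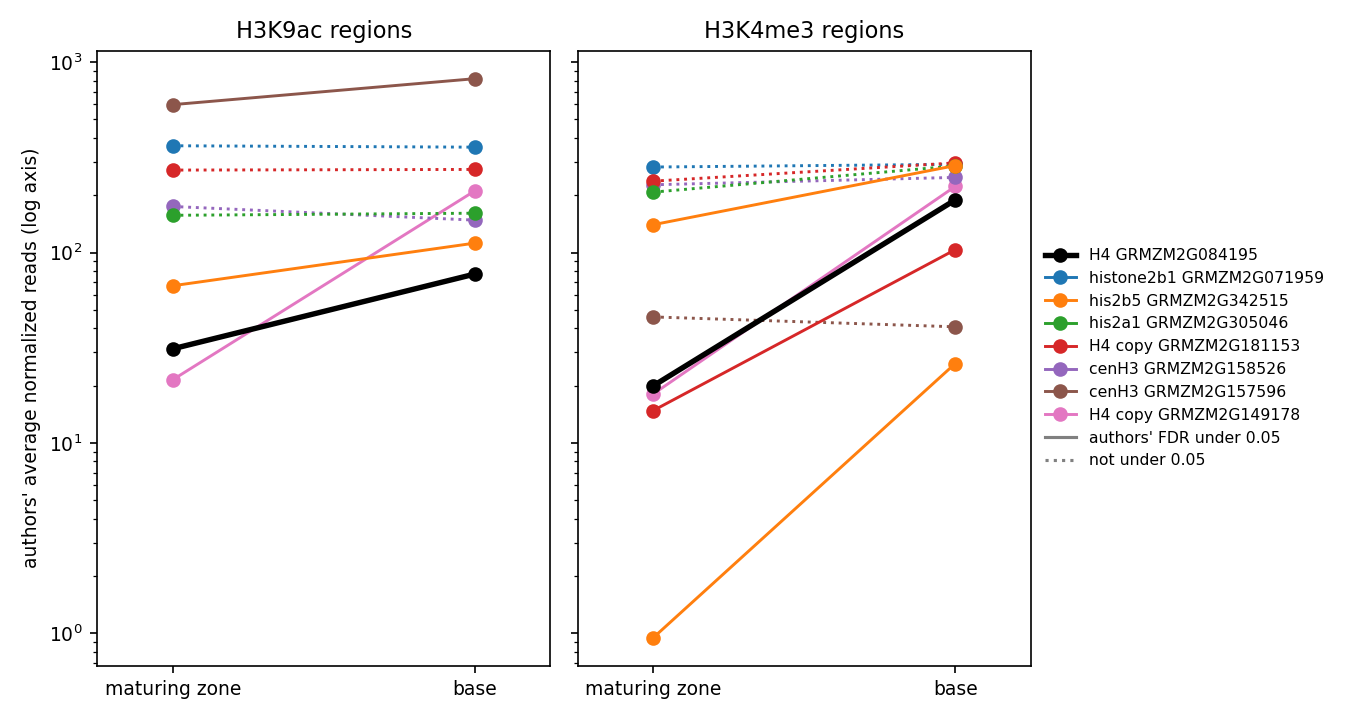
Authors' average normalized reads on a log axis in the maturing zone (left) and the base (right) for each H3K9ac and H3K4me3 region next to the H4 gene (black) and other core histone features (colours); solid lines mark an authors' FDR under 0.05 and dotted lines do not. The H4 gene stood at 31.24 in the maturing zone against 77.13 in the base for H3K9ac, and at 19.97 against 189.07 for H3K4me3.

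Regions of the other H4 features ran from a loss of both marks to no called change in H3K9ac. At GRMZM2G149178 on chromosome 10 the H3K9ac region from 134829901 to 134830513 averaged 21.49 in the maturing zone, against 210.77 in the base. Its H3K4me3 region from 134829964 to 134830508 averaged 18.1 in the maturing zone, against 222.71 in the base. The authors' deposited folds there are -9.81 and -12.31, so both marks were lost to a similar extent. At GRMZM2G181153 on chromosome 1 the H3K9ac region from 4234671 to 4235543 averaged 271.17 in the maturing zone, against 273.35 in the base, with a deposited FDR of 0.985. One of its H3K4me3 regions, from 4234495 to 4235289, averaged 237.22 in the maturing zone, against 295.87 in the base, and was not called (deposited FDR 0.633). The other, from 4235347 to 4235929, averaged 14.81 in the maturing zone, against 103.6 in the base, a deposited fold of -6.99.

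At the 3 H2A and H2B genes with assigned regions, 1 of 3 H3K9ac regions and 2 of 4 H3K4me3 regions were called lower in the authors' deposited table, beside 33.8% and 14.3% of all regions. At histone2b1 the averages were 363.89 H3K9ac and 281.38 H3K4me3 in the maturing zone, against 357.8 H3K9ac and 290.74 H3K4me3 in the base. At his2a1 they were 156.98 H3K9ac and 207.75 H3K4me3 in the maturing zone, against 160.99 H3K9ac and 285.25 H3K4me3 in the base. None of these 4 regions was called in the authors' deposited table, with FDR from 0.441 to 0.95. At his2b5 all 3 regions were called lower, with deposited folds of -1.67 for H3K9ac and of -2.04 and -27.6 for H3K4me3. The fold of -27.6 rests on a weak region, which averaged 0.95 in the maturing zone, against 26.16 in the base. The lowest H3K4me3 region in the maturing zone stood at 0.73, and in the base 94.2% of H3K4me3 regions stood above the weak region. The other H3K4me3 region averaged 140.12 in the maturing zone, against 286.37 in the base. At GRMZM2G157596, listed as cenH3, H3K9ac averaged 598.27 in the maturing zone, against 818.71 in the base (deposited fold -1.37, FDR 0.00855). That region was called lower, while the gene's log2 transcript difference of 1.47 was positive and not called. The H3K4me3 region there and both regions of GRMZM2G158526 were not called, with deposited FDR from 0.257 to 0.866.

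The H3 gene had no assigned region of either mark. Of 2359 protein-coding features with a mean base RPKM at or above that of H3, 139 lacked regions of both marks, or 5.89%. For H4 the same count was 17 of 280, or 6.07%, which H4 itself is not among. Whether reads that match several H3 copies were kept in the chromatin data was not stated.

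Around the H4 gene, the nearest other regions were those of low-confidence gene models. The H3K9ac region from 156506042 to 156506613, 2321 bp before that of H4, averaged 62.63 in the maturing zone, against 48.76 in the base (deposited fold 1.28, FDR 0.27). The next one, 29793 bp after it, averaged 34.56 in the maturing zone, against 83.72 in the base, with a deposited fold of -2.42. The H3K4me3 neighbour 63383 bp before had a deposited fold of -1.26 (FDR 0.622), and the one 31023 bp after had -11.67 (FDR 9.2e-14). The loss at H4 thus had a called neighbour on one side only for each mark.

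Genes whose pattern over the 4 libraries was most like that of each histone gene were ranked by distance between centred log2 levels among 24035 genes. The 5 closest to H3 were GRMZM2G108149, GRMZM2G066101, GRMZM2G432050, GRMZM2G372074 and GRMZM5G883764, at distances of 0.199 to 0.511 and with log2 differences of -8.22 to -7.65. The 5 closest to H4 were GRMZM2G045287, GRMZM2G395983, GRMZM2G071101, GRMZM2G058702 and GRMZM2G057000, at distances of 0.118 to 0.298. The last of these carries the name DWF1 in the reference table, after a gene of brassinosteroid synthesis. H4 itself ranked 334 from H3, at a distance of 1.89, and H3 ranked 1055 from H4.

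Unlike H3, 4 of its 5 closest genes had regions of both marks. All 5 of their H3K9ac regions and 3 of 4 H3K4me3 regions were called lower in the authors' deposited table, and over all of them the folds ran from -2.71 to -22.68 for H3K9ac and from -1.9 to -69.21 for H3K4me3. Among the genes closest to H4, 4 of 4 H3K9ac regions and 5 of 6 H3K4me3 regions were called lower, beside 33.8% and 14.3% of all regions. Their deposited folds ran from -3.62 to -14.34 for H3K9ac and from -1.94 to -13.37 for H3K4me3, so the H3K9ac fold of H4, -2.47, was smaller in size than each of theirs. These genes were ranked on the transcripts of the same leaves, and nothing is read from their marks beyond the values.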

How the data were processed

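Per the labels' protocols, RNA and chromatin were sequenced as 50 bp single-end reads. The submitters' processing notes name edgeR, DiffBind 1.10.0, Trimmomatic 0.32, CASAVA 1.8.2 and, as genome build, B73 RefGen_v3, without their steps. Which aligner, counter and peak caller were used, and whether strand was kept, was not stated. The deposited transcript table holds exon read counts and the authors' RPKM per library. The deposited chromatin tables hold the authors' average signal (normalized reads) per zone. All 3 tables hold a signed fold, which is a score that is negative where the maturing zone is lower, and an FDR-corrected p-value from the authors.

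Counts were fitted with edgeR 4.0.16 in R 4.3.3: filterByExpr (minimum count 10), TMM, a quasi-likelihood test without covariates, and Benjamini-Hochberg adjustment over 26787 genes at 0.05. TMM factors ran from 0.554 to 1.66. Standard errors come from the log2 change and its F statistic. DESeq2 1.42.0 served as an alternative. Chromatin calls are those of the authors at FDR under 0.05.

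The labels do not state that library letters pair the zones, and p-values measure only the spread between pools of plants. With 2 libraries per zone an exact permutation test of 1 value cannot go below p = 0.333. RefSeq names (assembly Zm-B73-REFERENCE-NAM-5.0) matched 18834 of 110149 features and all 44 listed genes. The lists were drawn from these names: core histones, chaperones and replication genes. Product names were not at hand, so genes without a telling name are missing from the lists. Named were all core histone features, the 5 chaperone and 5 replication genes with most reads, and the 5 genes closest to each histone gene among those with at least 100 reads (prior count 0.5). Genes and lists were chosen with earlier results of these data known. Sequences were not used here.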

Additional observations from a re-analysis of the deposited data

How the results depend on the processing

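H3 and H4 kept their direction under every alternative run, with log2 differences of -9.65 to -7.05 for H3 and -7.64 to -5.71 for H4. The count of 6 lower core histone features was 4 to 6, and that of 9 lower replication genes 7 to 13. The count of 6 lower chaperone genes was 4 to 9. Core histone features called higher numbered 1 with DESeq2 size factors and 1 in the fit with a replicate block, in both cases GRMZM2G157596, against 0 otherwise. The log2 difference of ssrp1 turned to -0.80 under library totals, and ran from -0.46 (without maturing zone library A) and -0.23 (without base library B) to 1.13 with 1 library left out; a lone library is assumed to vary like the other zone. The fit with library letters as a replicate block called 10820 genes lower and 9543 higher, against 4229 and 3605 without it, and the A minus B differences of the zones correlated with r = 0.75 across 26787 genes, which are not independent. Library totals gave 8300 lower and 2548 higher. Stricter thresholds on the deposited FDR (0.01, or 2-fold) kept both H4 regions; limiting regions to 2000 bp from a gene start was not run, since the files give no starts. The H3 level in the maturing zone rests on 5 reads. For the H1 genes, whose alternatives were chosen after seeing the data, the count of 1 lower gene was 4 with the replicate block, 2 under library totals and 0 with 1 library left out, and the log2 difference of his1 ran from -1.91 to 0.56 with 1 library left out. A gene that was not called is not shown to have equal levels in both zones.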

Other observations

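Linker histone H1 binds the DNA between nucleosomes and was not among the lists planned at the outset. Of 4 H1 genes named in the reference 1 fell and 0 rose, beside 15.8% and 13.5% of all tested genes, and their median log2 difference was -1.29. The count moved with the fit: it was 4 with library letters as a replicate block and 2 under library totals. Those fits also called more of all 26787 tested genes lower, 10820 and 8300, against 4229 in the main fit. The gene hon110 (GRMZM2G164020) had a mean of 101 ± 1.27 CPM in the maturing zone and 532 ± 117 CPM in the base (SD, n = 2 each), a log2 difference of -2.40 ± 0.59 (edgeR adjusted p = 0.0356, and 0.0574 to 0.246 with 1 library left out). The gene hon102 (GRMZM2G401308) had 138 ± 37.2 CPM in the maturing zone and 434 ± 125 CPM in the base (SD, n = 2 each), and was not called at -1.66 ± 0.61 (edgeR adjusted p = 0.0933). The remaining pair, hon101 and his1, had -0.92 and -0.86 with edgeR adjusted p of 0.426 and 0.55. Of the 4 H3K9ac regions of these genes, 1 was called higher and 1 lower in the authors' deposited table. Of their 4 H3K4me3 regions 0 were called in either direction. Over all regions 33.8% of H3K9ac and 14.3% of H3K4me3 were called lower, and the share called higher was not counted. At hon101 (GRMZM2G080274) H3K9ac averaged 498.57 in the maturing zone, against 203.05 in the base, a deposited fold of 2.46 at an FDR of 1.9e-13. At hon110 it averaged 371.36 in the maturing zone, against 579.1 in the base, a deposited fold of -1.56 at an FDR of 4.42e-05. The H3K9ac regions of hon102 and his1 had deposited FDR of 0.259 and 0.611.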
